A study of Mus musculus with 6 samples.

Results

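The RNA exosome is a barrel-shaped complex that degrades and trims RNA from its 3′ end, and its 10 Exosc genes were examined here in primary T cells kept with disulfiram. They were chosen by symbol, as the ring, the cap and the nuclear nuclease of the complex, from the 55536 genes of the deposited table, and all 10 were found. The set was picked because Exosc6 had no counts in any disulfiram library, so the difference in Exosc6 is described without a test. The other 9 genes entered as subunits of the same complex, but with earlier results of these data known, and their test results are given as descriptions.

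In the complex, RNase PH-like subunits (Exosc4 to Exosc9) form a ring that is thought to have lost its catalytic activity in mammals. Exosc1, Exosc2 and Exosc3 form a cap with RNA-binding domains at the mouth of the ring. Degradation is carried out by Dis3 or Dis3l, bound at the bottom, and by Exosc10, a nuclear exonuclease at the top. The nuclear form matures ribosomal and small nucleolar RNA and removes short-lived transcripts. The cytoplasmic form degrades messenger RNA, including the unstable cytokine messages of T cells.

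The cells were wild-type OT-I T cells, which carry a transgenic T cell receptor, taken from mouse lymph nodes and kept in complete culture medium. One group received dimethyl sulfoxide (DMSO), the solvent, and the other disulfiram (DSF), an inhibitor of aldehyde dehydrogenases, each for 2 h, with 3 libraries per group. The labels state no DSF concentration, mouse age or stimulus. They call the replicates biological but tie none to an animal or a culture, so p-values measure the spread between these libraries, which may be technical.

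Libraries held 18082178 to 21893653 counts. A floor of 3 counts was worth 0.136 to 0.166 CPM (counts scaled to a common library size), and floors and intervals below cover counting error only. The 7 T cell markers examined summed to 2169 to 2226 CPM in DMSO and 1952 to 2000 CPM in DSF, with 4 of the 7 lower by edgeR's test. The 5 myeloid and dendritic cell markers summed to 29.4 to 30.01 CPM in DMSO and 22.3 to 24.0 CPM in DSF, with 1 of the 5 lower, and the 4 B cell markers to 27.8 to 30.7 and 27.1 to 29.8 CPM, with 0 called. The 2 CD4 T cell, 2 natural killer cell and 3 stromal, endothelial and erythroid markers summed to at most 2.16, 4.04 and 36.1 CPM in any library. Of these, 1, 1 and 2 had enough counts to be tested, and 0 were called. By the same test 22.9% of all 14318 genes tested were called, 11.3% as lower. No marker was at or under the floor in every library. The part of these markers in the results below was not tested, and in bulk libraries fewer cells of a type and less RNA per cell cannot be told apart.

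Exosc6 encodes the ring subunit also called MTR3. Its only annotated transcript is a single exon of 1326 bases on the plus strand, at chr8:111056339-111057664 of GRCm38. In the GENCODE M21 annotation, which holds every deposited gene identifier with the same symbol, all 1326 bases lie inside an exon of another gene on the same strand. That gene is Aars, which encodes the cytosolic alanyl-tRNA synthetase, the enzyme that charges tRNA with alanine. The exon is the last of the 21 exons of a long Aars transcript, called the extended transcript here, and spans chr8:111055019-111057664, ending at the same base as Exosc6. The stop codon of Aars stands before Exosc6, so the coding sequence of Exosc6 lies in what is annotated as the untranslated end of the extended transcript. Of the 7 annotated transcripts of Aars, 1 reaches Exosc6. The deposited lengths of 5750 bases for Aars and 1326 bases for Exosc6 are those of the extended transcript and of the Exosc6 transcript, and Exosc6 makes up 23.1% of the former.

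**Figure D1:**
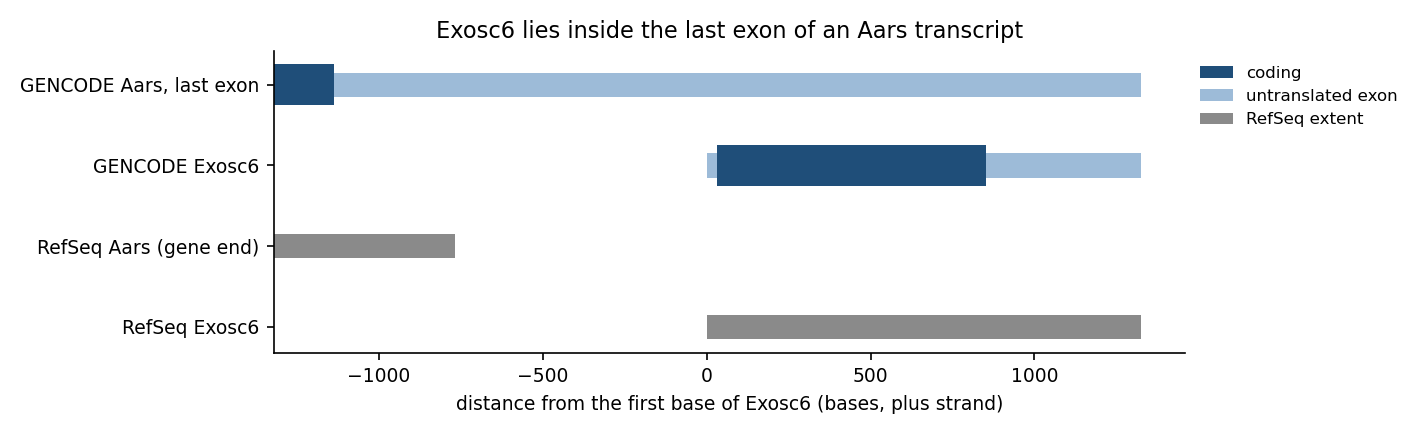
Annotated extents at the Exosc6 locus against the distance in bases from the first base of Exosc6, with coding parts as tall dark bars, untranslated exon as light bars and RefSeq gene extents in grey (the Aars bars begin at the start of the last exon of the extended transcript). The Exosc6 exon of 1326 bases lies wholly inside the Aars exon of 2646 bases, while RefSeq ends Aars 769 bases before Exosc6 begins.

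The 3 stretches of 30 bases below are shown because they place both reading frames on the single extended transcript. They were read from the GENCODE M21 transcript sequences and are printed 5′ to 3′ on the plus strand, with the start or stop codon in capitals. The first, at chr8:111055175-111055204, ends the coding part of Aars and lies at positions 3261 to 3290 of the extended transcript. The second, at chr8:111056371-111056400, opens the coding part of Exosc6 and lies at positions 4457 to 4486. The third, at chr8:111057163-111057192, closes it at positions 5249 to 5278.
Aars coding end: cagctccgtctgggagatgtgaagaacTGA
Exosc6 coding start: ATGccgggagaccatcgccgcatccgcggg
Exosc6 coding end: cgccggaggggtgccgccgccccacccTGA
The last 2 occur in both transcripts alike, and the whole Exosc6 transcript is a stretch of the extended Aars transcript. A read from inside Exosc6 therefore matches both transcripts in full. The overlap depends on the annotation. RefSeq, on GRCm38.p6, gives Exosc6 the same start and end but ends Aars at base 111055569, which leaves 769 bases between both genes.

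The deposited expected counts of Exosc6 were 121.33, 136.34 and 100.89 in the 3 DMSO libraries and 0 in each of the 3 DSF libraries. Aars had 4890.67, 5956.66 and 5333.11 expected counts in DMSO and 4967, 5413 and 5674 in DSF. Counts of both genes thus had fractions in every DMSO library and were whole in every DSF library. Added together, Exosc6 and Aars came to 5012, 6093 and 5434 in DMSO, whole to within 0.005 counts, and to 4967, 5413 and 5674 in DSF. In each DMSO library the fractions of both genes therefore complemented each other to a whole count.

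**Figure D2:**
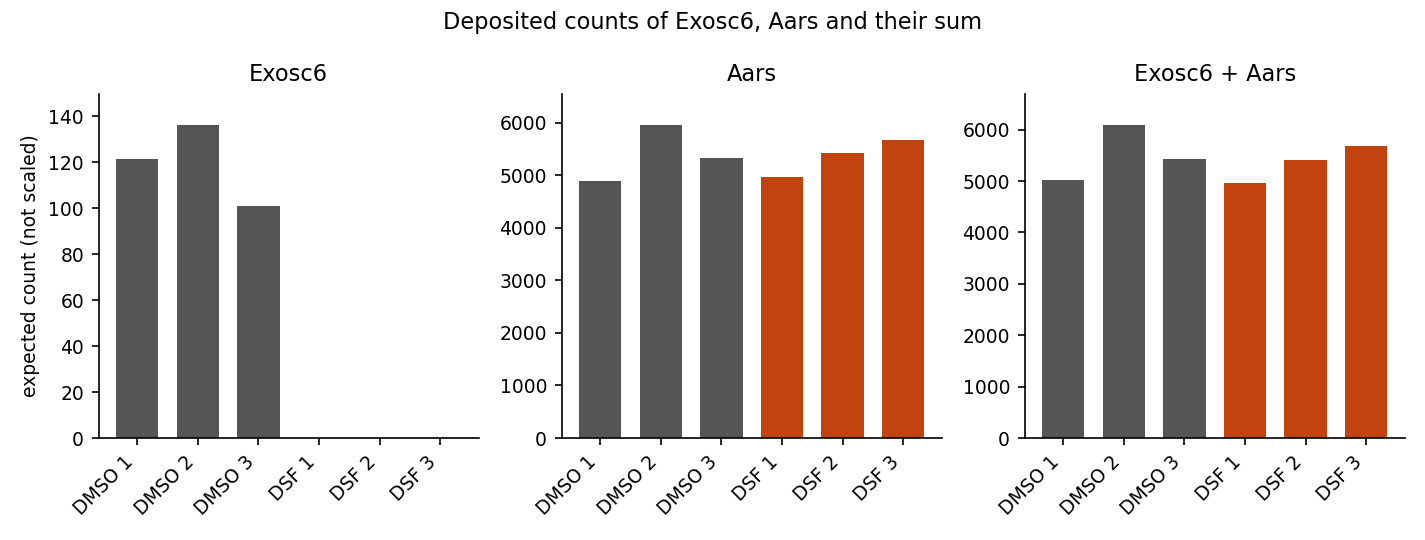
Deposited expected counts, not scaled for library size, of Exosc6, Aars and their sum in each of the 3 DMSO (grey) and 3 DSF (orange) libraries. Exosc6 lies between 100.89 and 136.34 in DMSO and at 0 in DSF, while the sum lies between 4967 and 6093 over the 6 libraries with both groups overlapping.

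As a share of the summed counts, Exosc6 took 2.41% (95% exact Clopper-Pearson interval 2.01 to 2.88%), 2.23% (1.88 to 2.63%) and 1.86% (1.52 to 2.25%) in the DMSO libraries. The DSF libraries had a share of 0, with upper limits of 0.0742%, 0.0681% and 0.0650% by the same kind of interval. On the CPM scale, after scaling by edgeR's TMM factors, Exosc6 stood at 6.54, 6.18 and 4.99 in DMSO. Its mean there was 5.90 ± 0.813 CPM (SD, n = 3). Against a floor of 3 counts per library, the counts assigned to Exosc6 in DSF were at least 38.2-fold lower. That figure covers counting error only and not how reads were divided with Aars. In TPM, the authors' transcript level that accounts for length, Exosc6 was at 7.42, 7.13 and 5.82 in DMSO and at 0 in DSF.

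Aars on its own stood at 264, 271 and 263 CPM in DMSO and 275, 277 and 272 CPM in DSF, so the groups did not overlap and DSF was the higher. The log2 fold change of 0.04 ± 0.03 (SE) was not called (edgeR's adjusted p = 0.39). With the counts of both genes summed into 1 row before the fit, the level was 272 ± 4.30 CPM in DMSO and 275 ± 2.32 CPM in DSF (SD, n = 3 per group), and the groups overlapped. The log2 fold change of the sum was 0.01 ± 0.03 (SE), and edgeR's adjusted p was 0.839. Taking the Exosc6 counts away from DMSO while Aars kept its own would move the sum by -0.03 on the log2 scale, which is no larger than that SE. The sum therefore does not resolve whether Exosc6 counts were lost or were given to Aars, and less Exosc6 RNA and another division of the same reads cannot be told apart from these tables. Read positions were not analysed here.

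No other gene of the table shared the pattern of Exosc6. Of 55536 genes, 1 had 0 counts in every DSF library and at least 10 in every DMSO library, and the count was also 1 with a minimum of 5 or of 20 counts. The mirror pattern, 0 in every DMSO library and at least 10 in every DSF library, was met by 0 genes. With a minimum of 5 it was met by Pifo alone, with 8, 10 and 5 counts in DSF. Among the 11715 genes that reached 50 counts in some library, 15, or 0.128%, were at 0 in at least 1 of the 6 libraries.

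Exosc6 was 1 of 633 genes whose exon bases all lie in same-strand exons of a single other gene, a set chosen after the Exosc6 overlap was seen. Most were barely counted, and 12 of the 633 reached 50 counts in some library. Protein-coding genes inside a gene of another symbol made up 6 of the 12, Exosc6 among them. Ndor1, Sept2, Zc3h11a and Chtf8 lay inside an entry of their own symbol. Of these 12, 2 were at 0 in at least 1 library, namely Exosc6 and the noncoding gene AY036118, which was at 0 in 2 DSF libraries. The other 10 had counts in every library. Trex1, the gene for a cytosolic DNA exonuclease that lies within Atrip, had 470 to 642 counts in DMSO and 394 to 519 in DSF. Yy2, a zinc finger gene within Mbtps2, had 144 to 155 counts in DMSO and 116 to 130 in DSF, and Rsc1a1, within Ddi2, had 90.1 to 148 and 94.0 to 117.

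Per length, the subunit genes differed widely in level. In DMSO the ring gene Exosc8 was highest, at 111 ± 4.94 TPM (SD, n = 3), followed by the cap gene Exosc3 at 72.2 ± 1.65 TPM and the nuclease gene Exosc10 at 57.5 ± 1.33 TPM. Exosc7 (50.01 ± 1.51 TPM), Exosc5 (45.4 ± 3.48 TPM), Exosc2 (42.5 ± 3.76 TPM) and Exosc9 (39.0 ± 1.48 TPM) came next, and each overlapped its neighbour in this order over the 3 libraries. Exosc1 followed at 35.0 ± 0.716 TPM, Exosc4 at 14.6 ± 1.05 TPM and Exosc6 at 6.79 ± 0.852 TPM, with no overlap between these neighbours. In DSF the order was the same but for Exosc2, which stood below Exosc9 at 34.0 ± 1.74 TPM, with no overlap between them. Exosc6, the lowest of the 10 in both groups, is also the gene that shares all of its exon bases with Aars, so its level per length rests on that division of counts.

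The other 9 subunit genes were compared through a fit over all 14318 genes that passed a filter on low counts, which all 10 subunit genes passed. Of the 9, 5 were lower with DSF by edgeR's quasi-likelihood test at a Benjamini-Hochberg adjusted p under 0.05 and 0 were higher. Over all genes tested 22.9% were called, 11.3% as lower and 11.6% as higher. The median log2 fold change of the 9 was -0.21, beside 0.00 over all genes tested, and all 9 fitted values lay below 0, as did 50.6% of all genes tested. Exosc9, the closest to 0, crossed to 0.00071 without DMSO library 1 and to 0.00042 without DSF library 2. The 3 libraries of each group did not overlap in 7 of the 9, each of them lower with DSF, beside 17.9% of all genes tested that were apart in that direction and 35.4% in either. The count of 5 called members fell to 2 by DESeq2 and by limma, to 3 without DMSO library 2 or DSF library 2, and to 2 without DSF library 3, and Exosc1 and Exosc2 were called in each of these.

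**Figure D3:**
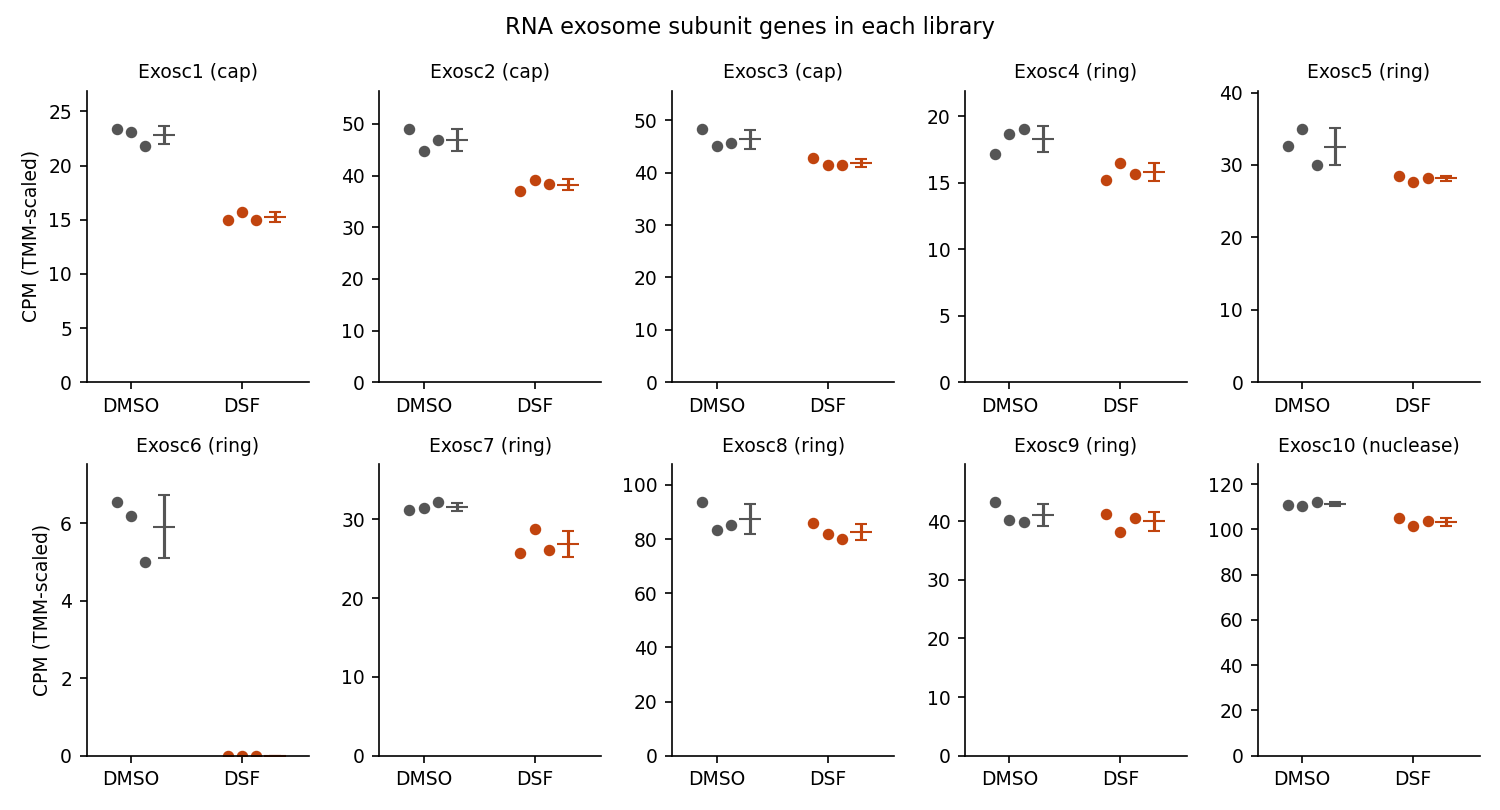
CPM, scaled by TMM, of the 10 subunit genes in each of the 3 DMSO (grey) and 3 DSF (orange) libraries, with the mean and SD beside the points and every axis starting at 0. The libraries of both groups overlap in Exosc8 and Exosc9 and are apart in the other 8 genes, where DSF is the lower. Exosc6 is among these 8 and was picked for its counts in DSF. Of all genes tested, 17.9% were apart with DSF the lower.

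All 3 cap genes were lower by edgeR's test, beside 11.3% of all genes tested. Exosc1, the gene for the cap subunit CSL4, lies at chr19:41922292-41933423 and shares no exon base with another gene. It stood at 23.4, 23.1 and 21.8 CPM in DMSO and at 15.0, 15.7 and 15.0 CPM in DSF. The highest DSF library was well below the lowest DMSO library. The log2 fold change was -0.58 ± 0.07 (SE), or 0.669 of the DMSO level, and edgeR's adjusted p was 3.56e-07.

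Exosc2, the gene for the RNA-binding cap subunit RRP4, lies at chr2:31670715-31681349. It stood at 49.1, 44.7 and 46.9 CPM in DMSO and at 37.1, 39.2 and 38.5 CPM in DSF, again with no overlap. Its log2 fold change was -0.29 ± 0.05 (SE), with edgeR's adjusted p at 0.000112. An antisense gene over its exons, Gm13427, had at most 2.3 counts in any library. Exosc3, whose human counterpart is mutated in a form of pontocerebellar hypoplasia, stood at 48.5, 45.1 and 45.7 CPM in DMSO and 42.8, 41.4 and 41.5 CPM in DSF. Its groups were apart by a narrower gap, with a log2 fold change of -0.15 ± 0.05 (SE) and edgeR's adjusted p at 0.0389. That call ended when any 1 of the 6 libraries was left out (adjusted p from 0.0528 to 0.144), by DESeq2 (adjusted p = 0.166), with no filter beyond a count above 0 (adjusted p = 0.0746) and with limma on log2(TPM + 0.1) (adjusted p = 0.0974).

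The 250 bases before the RefSeq start sites of Exosc1 and Exosc2 are shown because these 2 members had the lowest log2 fold changes of the 9 and were called in each of the 14 alternatives. They are printed 5′ to 3′ along each gene's strand from RefSeq, build GRCm38.p6. The first lies at chr19:41933315-41933564 on the minus strand and the second at chr2:31670465-31670714 on the plus strand. Capitals mark the CCAAT box, letters CCAAT or ATTGG on the other strand, of which each window holds 3, a pair of them overlapping in Exosc1.
Exosc1 upstream: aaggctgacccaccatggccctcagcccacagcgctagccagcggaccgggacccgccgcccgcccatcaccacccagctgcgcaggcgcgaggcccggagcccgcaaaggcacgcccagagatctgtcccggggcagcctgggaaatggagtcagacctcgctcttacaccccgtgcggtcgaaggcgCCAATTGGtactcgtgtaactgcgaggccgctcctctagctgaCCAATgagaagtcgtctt
Exosc2 upstream: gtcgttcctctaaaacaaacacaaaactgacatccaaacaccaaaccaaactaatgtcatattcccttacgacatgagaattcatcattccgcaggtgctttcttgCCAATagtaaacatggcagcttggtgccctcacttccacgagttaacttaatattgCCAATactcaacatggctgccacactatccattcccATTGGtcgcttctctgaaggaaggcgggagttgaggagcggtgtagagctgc
Start windows of 300 bases, 250 before and 50 after the start, were at hand for 8 of the 10 members. On either strand the CCAAT box occurred in 3 of the 8, namely Exosc1, Exosc2 and Exosc5, and in 37.4% of all 32851 windows. The E-box CACGTG occurred in 1 of the 8 and 7.15% of all windows, the ETS core CCGGAAG in 2 and 8.86%, and the GC box GGGCGG in 6 and 35.7%. The window of Exosc6 lies in full, all 300 bases, inside the last exon of the extended Aars transcript and is not printed.

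Among the ring genes other than Exosc6, Exosc5 and Exosc7 were lower. Exosc7 (chr9:123113215-123136129), the gene for the ring subunit RRP42, stood at 31.1, 31.4 and 32.2 CPM in DMSO and at 25.8, 28.8 and 26.1 CPM in DSF. The groups did not overlap, and the log2 fold change was -0.23 ± 0.06 (SE, edgeR's adjusted p = 0.00712). The call ended without DSF library 3 (adjusted p = 0.0509), by DESeq2 (adjusted p = 0.0502) and with limma on log2(TPM + 0.1) (adjusted p = 0.0811). Exosc5 (chr7:25659164-25671368), the gene for the ring subunit RRP46, stood at 32.6, 35.0 and 29.98 CPM in DMSO and 28.4, 27.7 and 28.2 CPM in DSF. The spread was wider in DMSO than in DSF, and the log2 fold change was -0.21 ± 0.06 (SE, edgeR's adjusted p = 0.0165). That call ended without DMSO library 2 (adjusted p = 0.147), without DSF library 2 (adjusted p = 0.0721), without DSF library 3 (adjusted p = 0.0523), by DESeq2 (adjusted p = 0.0933) and with limma on log2(TPM + 0.1) (adjusted p = 0.133).

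Exosc4, Exosc8 and Exosc9 did not pass. Exosc4 stood at 17.1, 18.6 and 19.1 CPM in DMSO and 15.2, 16.5 and 15.7 CPM in DSF. Its groups did not overlap, but the log2 fold change of -0.21 ± 0.08 (SE) missed the threshold by edgeR's test (adjusted p = 0.0511), which it met without DMSO library 1 (adjusted p = 0.0314) and when scaled by library size alone (adjusted p = 0.0424). Exosc8, the most abundant subunit gene per length, stood at 93.7, 83.5 and 85.1 CPM in DMSO and 86.0, 81.7 and 80.0 CPM in DSF, with overlap and a log2 fold change of -0.08 ± 0.05 (SE). Exosc9 stood at 43.3, 40.2 and 39.8 CPM in DMSO and 41.2, 38.1 and 40.6 CPM in DSF, likewise with overlap, at -0.04 ± 0.06 (SE). Exosc9 shares 510 exon bases on the opposite strand with the cyclin gene Ccna2 and Exosc4 shares 385 with Oplah. Exosc5, Exosc2, Exosc8 and Exosc3 share 355, 358, 89 and 53 opposite-strand bases with Tmem91, Gm13427, Supt20 and Dcaf10. No source used here says if strand was read in counting. Of these partners Ccna2 was lower, from 216 ± 7.70 to 200 ± 2.62 CPM (SD, n = 3 per group), at edgeR's adjusted p of 0.0227, which rose to between 0.054 and 0.132 when 1 of DMSO libraries 1 and 2 or any DSF library was left out and was 0.263 with limma on log2(TPM + 0.1). Dcaf10, Oplah, Supt20 and Tmem91 were not called.

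Exosc10 (chr4:148558429-148582401), the gene for the nuclear exonuclease RRP6, stood at 111, 110 and 112 CPM in DMSO and 105, 101 and 104 CPM in DSF. The groups did not overlap, but the log2 fold change of -0.10 ± 0.04 (SE) was not called (edgeR's adjusted p = 0.0759). Of the other nuclease genes 1 of 2 was lower, beside 11.3% of all genes tested. Dis3, which carries exonuclease and endonuclease activity, fell from 81.1 ± 4.51 to 69.9 ± 2.13 CPM (SD, n = 3 per group), a log2 fold change of -0.21 ± 0.05 (SE, edgeR's adjusted p = 0.0016), and passed in each of the 14 alternatives. Dis3l, its cytoplasmic counterpart, stood at 21.8 ± 1.37 and 23.4 ± 2.15 CPM and did not pass (log2 fold change 0.10 ± 0.08, edgeR's adjusted p = 0.408).

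**Figure D4:**
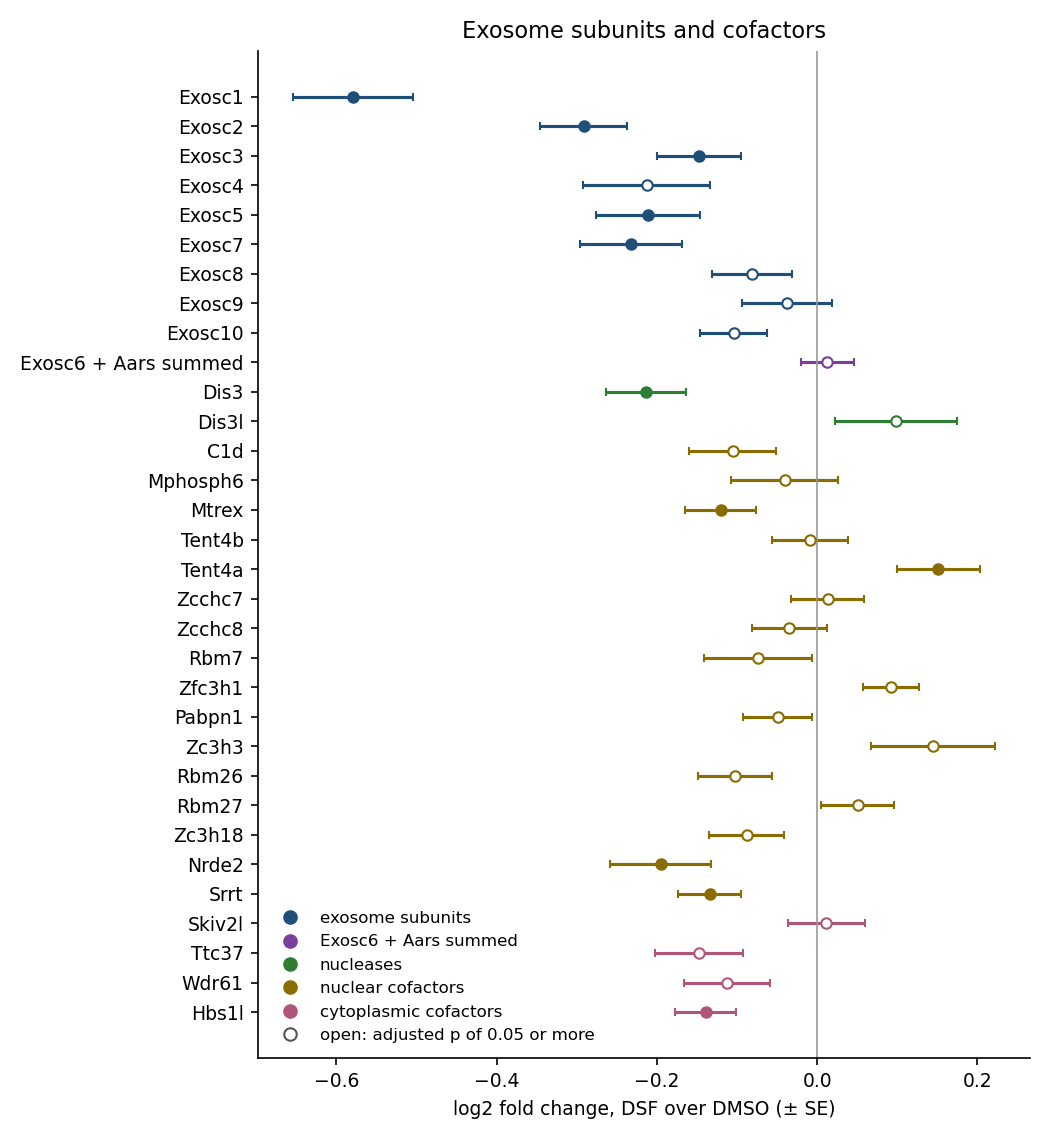
Log2 fold change of DSF over DMSO with its SE for 9 subunit genes, the summed Exosc6 and Aars counts, the nucleases and the cofactors, with filled points where edgeR's adjusted p was under 0.05. Exosc1 lies furthest from 0 at -0.58, and the summed counts lie at 0.01.

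Many cofactors act with the complex or on it. The lists below are not sorted by whether a cofactor aids or restrains it. Of 16 nuclear cofactor genes, 3 were lower, 1 was higher and 12 did not pass, at a median log2 fold change of -0.04. The called share of 25.0% is near the 22.9% over all genes tested. Srrt, the gene for the cap-complex partner ARS2, stood at 255 ± 16.0 and 233 ± 4.92 CPM (log2 fold change -0.13 ± 0.04, edgeR's adjusted p = 0.0117). The call of Srrt ended without DMSO library 2 or 3 or DSF library 1 (adjusted p = 0.0517, 0.126 and 0.0844). Nrde2 stood at 30.9 ± 0.463 and 27.0 ± 1.18 CPM (-0.20 ± 0.06, edgeR's adjusted p = 0.0219), a call that ended by DESeq2 (adjusted p = 0.118), without DMSO library 2 or 3 (adjusted p = 0.055 and 0.0706) and without DSF library 1 (adjusted p = 0.0772) or 3 (adjusted p = 0.118). The third lower gene, the helicase gene Mtrex, stood at 133 ± 6.10 and 122 ± 5.12 CPM (-0.12 ± 0.04, edgeR's adjusted p = 0.0461). How its call fared in the alternatives is not given here. Tent4a, the gene for a noncanonical poly(A) polymerase, was higher, at 41.8 ± 1.65 and 46.5 ± 0.511 CPM (0.15 ± 0.05, edgeR's adjusted p = 0.0331). That call ended by DESeq2 (adjusted p = 0.139), with no filter beyond a count above 0 (adjusted p = 0.0687), without DMSO library 1 or 2 and without any 1 DSF library (adjusted p from 0.0656 to 0.119). With limma on log2(TPM + 0.1) the calls of Srrt, Nrde2, Tent4a and Hbs1l ended (adjusted p = 0.352, 0.175, 0.169 and 0.274). Of 4 cytoplasmic cofactor genes, 1 was lower, 0 were higher and 3 did not pass, at a median log2 fold change of -0.13. Their called share of 25.0% is likewise near the 22.9% over all genes tested. Hbs1l was the lower gene, from 183 ± 4.97 to 166 ± 5.47 CPM (-0.14 ± 0.04, edgeR's adjusted p = 0.007). Without DSF library 2 or 3 its adjusted p was 0.0776 or 0.0552, past the threshold. The helicase gene Skiv2l stood at 90.3 ± 0.731 and 91.0 ± 5.55 CPM, with overlapping groups. Ttc37 (-0.15 ± 0.05, edgeR's adjusted p = 0.0517) and Wdr61 (-0.11 ± 0.05, edgeR's adjusted p = 0.141) did not pass. Both had groups apart with DSF the lower, as in 17.9% of all genes tested.

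For comparison, 2 other lists of messenger RNA decay genes were read from the same fit. Of 18 genes of decapping and 5′ to 3′ decay, 1 was lower, 3 were higher and 14 did not pass, at a median log2 fold change of -0.02. The called share of 22.2% is near the 22.9% over all genes tested. Patl1, the gene for a decapping scaffold, stood at 75.0 ± 4.23 and 85.0 ± 2.82 CPM (0.18 ± 0.05, edgeR's adjusted p = 0.0074, and 0.0508 without DMSO library 1). The helicase gene Ddx6 stood at 574 ± 21.3 and 618 ± 13.2 CPM (0.11 ± 0.03, edgeR's adjusted p = 0.0177, and 0.151, 0.0904 and 0.0563 without DMSO library 2, DSF library 1 and DSF library 3). Lsm1, of the ring that binds deadenylated ends, stood at 19.1 ± 1.69 and 16.0 ± 2.13 CPM with overlapping groups (-0.26 ± 0.09, edgeR's adjusted p = 0.0401). Its call ended by DESeq2 (adjusted p = 0.17), without DMSO library 1 or 2 (adjusted p = 0.104 and 0.212) and without DSF library 2 (adjusted p = 0.281) or 3 (adjusted p = 0.118). With limma on log2(TPM + 0.1) the calls of Patl1, Ddx6 and Lsm1 ended (adjusted p = 0.131, 0.1 and 0.367). The 5′ to 3′ nuclease genes Xrn1 and Xrn2 had log2 fold changes of 0.03 ± 0.05 and -0.01 ± 0.04 (SE).

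Deadenylation shortens the poly(A) tail before decay from either end. Of 15 such genes, 6 were higher, 1 was lower and 8 did not pass, at a median log2 fold change of 0.04. Over all genes tested 22.9% were called and 11.6% were higher. Tob1, whose antiproliferative product recruits the deadenylase, rose 2.06-fold, from 15.8 ± 1.00 to 32.5 ± 2.64 CPM (1.04 ± 0.07, SE). The CCR4-NOT genes Cnot10 and Cnot6 rose from 76.1 ± 3.25 to 90.9 ± 1.12 CPM and from 216 ± 8.94 to 243 ± 2.50 CPM. All 3 were called in each of the 14 alternatives, by edgeR, DESeq2 or limma, and the highest adjusted p was that of Cnot6 with limma on log2(TPM + 1), 0.031. The difference between these lists and the exosome subunits was not tested.

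The authors' deposited table marks 189 genes as changed between the codes DF and DO, read here as DSF and DMSO, with 25 of them lower, and every marked gene differs by at least 1.00 on the log2 scale. Exosc6 is the 1 subunit gene so marked, and in the authors' deposited table it ranks 1 among the 25 by size, at -9.28, with the next at -2.58. Exosc6 was picked for its 0 counts in DSF, so this rank follows from the choice. With 0 counts in every DF library, its log2 ratios to DF are not measured sizes. The labels do not say what a further code, DC, stands for, and its libraries were not analysed here. For Exosc6 the authors' deposited table gives a log2 ratio of 6.56 for DC over DF and -2.72 for DC over DO, each with an adjusted p of 1. For Aars the authors' deposited table gives -0.01 and 0.04 for the same ratios. For Exosc1 it gives 0.39 for DC over DF (the authors' deposited adjusted p = 0.00443) and -0.19 for DC over DO (the authors' deposited adjusted p = 0.909), and for Exosc2 0.28 and -0.0048 (the authors' deposited adjusted p = 0.00168 and 1.00). These comparisons share libraries with that of DF and DO.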

How the data were processed

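Per the submitters' processing notes the reference was GRCm38 (mm10), and per the labels' protocols a SMARTER mRNA kit made the libraries. No source used here names the aligner, counter, annotation or strandedness. The deposited table gives expected counts with 2 decimals and no normalisation, 12.1 to 12.9% of them not whole. Per the file headers it also gives TPM by library, the authors' mean TPM by group, and the authors' log2 fold changes, fold ratios, p-values and adjusted p-values. The mean TPM headed DO matched the A columns and that headed DF the B columns in 55536 of 55536 genes (within 0.01 TPM). DO was taken for DMSO, DF for DSF and a column's number for its replicate number. Every direction rests on this. No column of values by library was left out (0 unused).

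Whole counts had been planned for, so expected counts were rounded, filtered with filterByExpr (14318 genes kept) and scaled by TMM. The test was edgeR's robust quasi-likelihood test (4.0.16, R 4.3.3) with group alone in the design. Each SE was derived from the fold change and F statistic. DESeq2 1.42.0 and limma 3.58.1 were alternatives. The steps were tested on simulated data. Exon overlaps came from GENCODE M21. Pairs of replicate libraries differed by more than counting error (chi-square 2.22 to 4.28 for each degree of freedom). The labels pair no replicate number across the groups, and the fit was unpaired. A fit with the replicate number as a block is given below.

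The members and lists were chosen with earlier results of these data known. Genes named were the members, Dis3, Dis3l, genes sharing exon bases with a member, and up to 3 called genes of smallest p per partner list. Skiv2l, Ttc37, Wdr61, Mtrex, Xrn1, Xrn2 and the genes inside other genes were named after their values were seen. The unrounded fit and the set of contained genes were added after seeing the data.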

Additional observations from a re-analysis of the deposited data

How the results depend on the processing

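Over 14 alternatives, Exosc1, Exosc2, Dis3, Tob1, Cnot10 and Cnot6 kept their direction and call, and the 9 members other than Exosc6 gave 126 values, of which 100 kept direction and call, 20 lost and 4 gained the call, and 2, both of Exosc9, changed sign (0.00071 without DMSO library 1 and 0.00042 without DSF library 2, in a range that began at -0.056 without DSF library 1). The sum of Exosc6 and Aars stayed uncalled in the 12 alternatives run on it, between 0.00 and 0.03 on the log2 scale; it was not run on TPM, since both genes are divided by different lengths there. DESeq2 called 2339 genes against 3276, 2 of the 9 members against 5, and 11 of the partner and comparison genes against 17. With limma on log2(TPM + 0.1) and log2(TPM + 1) these counts were 1368 and 1383 genes (539 and 546 lower, 829 and 837 higher, against 1621 and 1655 in the fit reported), 2 of 9 members, and 4 partner and comparison genes. Leaving out 1 library gave 2565 to 2972 genes, 2 to 5 of the 9 members and 8 to 15 partner and comparison genes. With the replicate number as a block, the paired fit called 3829 genes, 7 of the 9 members (with Exosc4 and Exosc10 added, at an adjusted p of 0.036 and 0.035) and 21 partner and comparison genes; each library correlated best with its own number in the other group, at 0.03 to 0.05, a hint from the data and not from the design. A count minimum of 5 moved the genes at 0 in DMSO alone from 0 to 1. The Exosc6 share of the summed DMSO counts was 2.17%, and 2.06 to 2.32% without 1 DMSO library. Tmem91, uncalled throughout, changed sign with limma (0.44 and 0.32) and without DSF library 2 (0.028, the highest without 1 library, from -0.19 without DSF library 1). In the fit reported the Exosc6 counts of DMSO were of the size of 1 SE of the sum.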
